A study of Mus musculus with 4 samples.

Results

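The transcripts of 10 amino acid transporter genes were compared between γδ T cells of mouse fat that did and did not express the transcription factor PLZF. The genes were the heavy chain Slc3a2, the light chains Slc7a5, Slc7a6, Slc7a8 and Slc7a11, the carriers Slc1a4, Slc1a5, Slc38a1 and Slc38a2, and Slc43a1. They were chosen by symbol (deposited in capitals as SLC3A2, SLC7A5, SLC7A6, SLC7A8, SLC7A11, SLC1A4, SLC1A5, SLC38A1, SLC38A2 and SLC43A1), and each of the 10 was found in the deposited tables, in 11 of 46799 loci. Of the 10, 6 were abundant enough to test, among 8930 tested genes of 44809 named ones.

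Cells came from epididymal adipose tissue of male C57Bl/6 PLZF-GFP mice, in which green fluorescence reports PLZF, and were sorted by FACS into PLZF+ and PLZF- γδ T cells, with gates that the labels leave out. Each subset had 2 libraries, PLZF+ A7 and B7, then PLZF- A6 and B6, named by the code in the table columns. Mice were 16 to 22 weeks old and given no treatment, and all of them, in both groups, carried the reporter. Every column name, in both groups, also held the tag SFD, which was not interpreted here. Each library was a pool of 10 mice, and whether the same mice gave a PLZF+ and a PLZF- pool is not stated in the labels. The digit in the code follows the subset, so an effect of that digit and one of the subset cannot be told apart.

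Zbtb16, which encodes PLZF, had 2899 and 2921 normalized counts in PLZF+ libraries, against 310 and 699 in PLZF- libraries. The CD3 chain genes Cd3d, Cd3e, Cd3g and Cd247 were present in all 4 libraries, and each was higher in PLZF+ libraries, while no symbol of a γ or δ constant gene was matched. Of 7 markers of αβ T cells, 1 was tested, a receptor locus that α and δ chains share, and it rose. Cd4, Cd8a and Cd8b1 were too low to test and were listed at 0 in both PLZF+ libraries. In PLZF- libraries A6 and B6 they had 13.5 and 4.88, 11.8 and 1.22, and 1.69 and 14.6 normalized counts. PLZF+ libraries were deeper, at 1837511 and 2035066 estimated reads without rRNA precursor, against 744569 and 981885 in PLZF- libraries. Markers of other lymphoid and dendritic cells were concentrated in PLZF- libraries, and their values are given beside Slc7a8. The 10 macrophage markers summed to 1.24 and 0.558 normalized counts in PLZF+ libraries, against 20.2 and 32.9 in PLZF- libraries, mostly Lyz2 and Cd68, with C1qa at 0 in every library. The 6 adipocyte markers summed to at most 5.06 in any library. The 8 stromal and endothelial markers summed to 160 and 153 normalized counts in PLZF+ libraries, against 113 and 117 in PLZF- libraries, mostly from Pecam1, which leukocytes also express, and Col1a1 was at 0 in every library. In such sorted pools, fewer cells of a type and less RNA per cell cannot be told apart.

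Lymphocytes take up amino acids through membrane carriers of the solute carrier families, and activated T cells depend on this uptake for growth. Slc3a2 encodes the CD98 heavy chain, a single-pass glycoprotein that brings one of several light chains to the surface, and the light chain does the transport. Sodium-coupled carriers such as those of Slc38a1 and Slc38a2 concentrate neutral amino acids, glutamine among them, inside the cell. Exchangers such as those of Slc1a5 and the light chains then trade these for other amino acids.

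Slc7a8 and Slc38a2 were lower in PLZF+ cells, and no transporter passed limma's test as higher (1, Slc1a5, at an unadjusted p under 0.05, and 0 by voom). Over all tested genes 8.37% were higher and 11.7% lower at an unadjusted p under 0.05, and voom called 2.81% higher and 4.46% lower. Slc7a8, the CD98 light chain known as LAT2, was 25.7-fold lower by the ratio of mean normalized counts. Slc38a2, the sodium-coupled neutral carrier SNAT2, was 3.79-fold lower. The other 4 tested genes, Slc3a2, Slc7a6, Slc1a5 and Slc38a1, did not pass, and the remaining 4 were too low to test. Slc1a4, Slc7a11 and Slc43a1 were at or near 0, and Slc7a5 reached 14.6 normalized counts in PLZF- library B6. Thus 2 of 6 tested genes fell, against 4.73% of all tested genes lower, 2.52% higher and 7.25% called in either direction by the same test. The median log2 fold change of the 6 was -0.23, against -0.02 over all tested genes. The subsets did not overlap for 4 of the 6, against 51.1% of all tested genes.

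**Figure D1:**
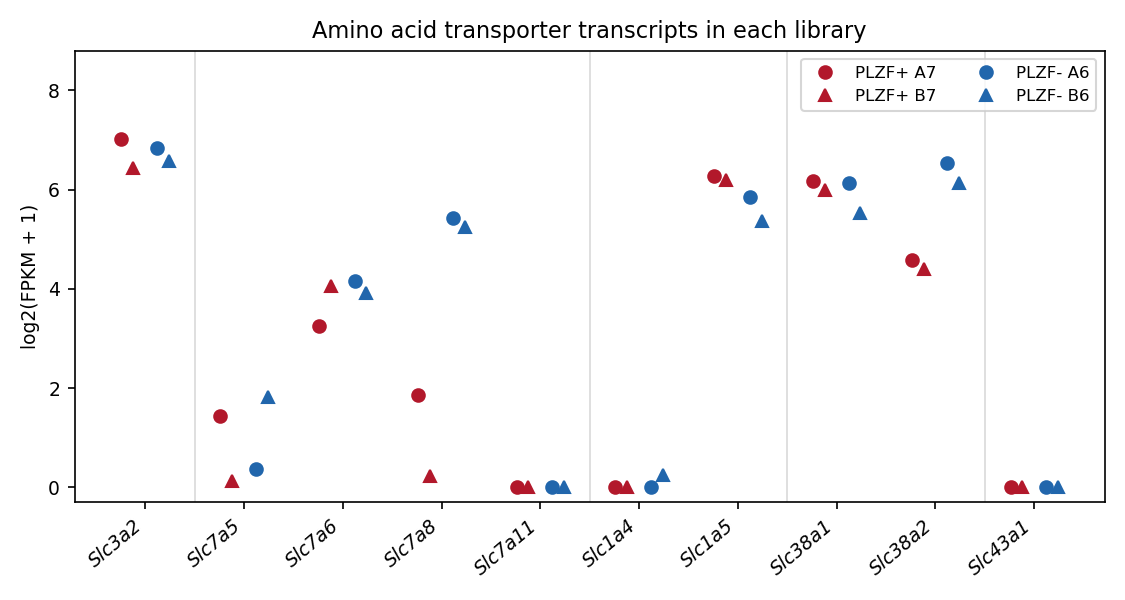
Level of each of the 10 transporter genes in each library as log2(FPKM + 1), with PLZF+ libraries in red, left of PLZF- libraries in blue (circles for A7 and A6, triangles for B7 and B6). Slc7a8 and Slc38a2 are lower in both PLZF+ libraries, while Slc3a2 sits between 85.4 and 129 FPKM in all 4, and Slc7a11 and Slc43a1 are at 0.

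**Figure D2:**
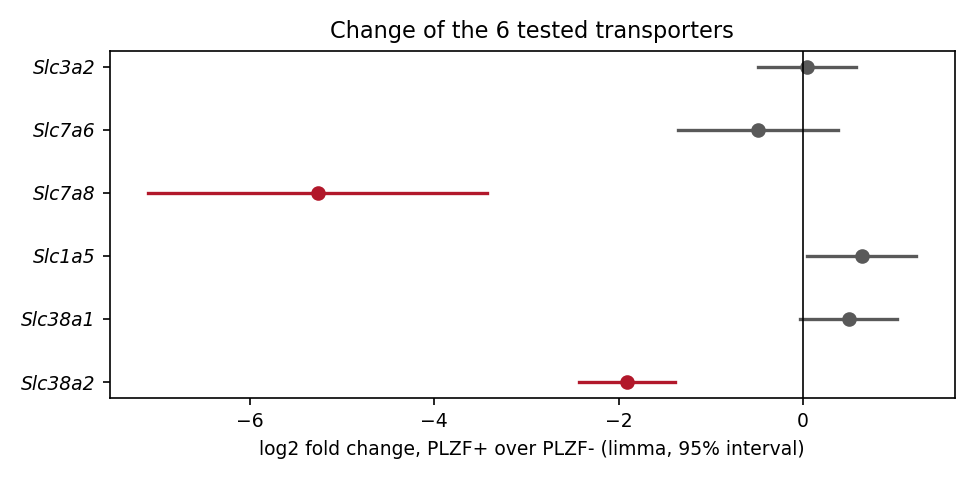
Fitted log2 fold change of PLZF+ over PLZF- cells with its 95% interval for the 6 tested genes (points, limma estimates). The 2 genes in red passed at an adjusted p under 0.05, Slc7a8 at -5.26 and Slc38a2 at -1.91.

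Levels are given in FPKM, which is per length, where genes are compared with each other. In PLZF+ libraries the order was Slc3a2 (107 ± 31.2 FPKM), Slc1a5 (74.3 ± 2.50), Slc38a1 (67.2 ± 6.38), Slc38a2 (21.6 ± 1.88), Slc7a6 (12.1 ± 5.01), Slc7a8 (1.40 ± 1.74) and Slc7a5 (0.893 ± 1.13, mean and SD in FPKM, n = 2). In PLZF- libraries it was Slc3a2 (104 ± 13.9 FPKM), Slc38a2 (80.3 ± 15.8), Slc38a1 (57.1 ± 16.9), Slc1a5 (48.5 ± 11.4), Slc7a8 (39.4 ± 3.65), Slc7a6 (15.5 ± 1.89) and Slc7a5 (1.40 ± 1.58). Slc38a2 therefore stood below Slc1a5 and Slc38a1 in PLZF+ libraries and above them in PLZF- libraries. Among these neighbours the ranges overlapped for Slc7a8 and Slc7a5 in PLZF+ libraries. They also overlapped for Slc38a1 and Slc1a5, and for Slc1a5 and Slc7a8, in PLZF- libraries. The FPKM of the 10 genes summed to 313 and 257 in PLZF+ libraries, against 391 and 303 in PLZF- libraries, and these ranges overlapped.

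The heavy chain gene Slc3a2 (chromosome 19, 8706882 to 8723369, minus strand, mm10) had 555 and 373 normalized counts in the PLZF+ libraries A7 and B7, against 488 and 401 in the PLZF- libraries A6 and B6. The PLZF+ values lay on both sides of the PLZF- values. The log2 fold change was 0.04 ± 0.24 (SE), with a 95% interval of -0.49 to 0.57 (limma adjusted p = 0.94). Its sign turned to -0.24 without PLZF+ library A7 and to -0.10 without PLZF- library B6.

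Slc7a8 (chromosome 14, 54722209 to 54781946, minus strand) encodes a light chain that exchanges neutral amino acids, large and small. It had 18.0 and 1.12 normalized counts in the PLZF+ libraries A7 and B7, against 283 and 207 in the PLZF- libraries A6 and B6. These values stood for an estimated 29 and 2 reads in the deeper PLZF+ libraries, against 168 and 170 in the PLZF- libraries. The subsets were far apart, but the PLZF+ libraries also differed widely from each other. The log2 fold change was -5.26 ± 0.84 (95% interval -7.10 to -3.43, limma adjusted p = 0.0023), and 74 of the 422 genes lower in PLZF+ cells fell at least as much. Without PLZF+ library B7 it was -3.68 (adjusted p = 0.0035) and without A7 -6.85 (adjusted p = 0.00012), so its size rested on which PLZF+ library was kept. It did not pass when the spread was moderated without a trend and the robust fit (adjusted p = 0.13). In the authors' deposited table the q-value of Slc7a8 was 0.0034.

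Markers of other cell types moved with Slc7a8. The 8 listed markers of group 2 innate lymphoid cells summed to 175 and 114 normalized counts in PLZF+ libraries, against 2988 and 2554 in PLZF- libraries. Of these, 5 were tested and all 5 fell (Gata3, Il1rl1, Il5, Areg and Klrg1), and Il17rb and Il9r were listed at 0 in both PLZF+ libraries. As a share of the PLZF- mean, Slc7a8 stood at 7.32% in A7 and 0.455% in B7. On the same scale A7 and B7 held 2.07% and 0.110% of Il1rl1, 2.89% and 0.465% of Il5, 2.66% and 0% of Klrg1, 11.1% and 4.68% of Areg, and 14.6% and 13.3% of Gata3. Most tested markers of natural killer, dendritic and mast cells that differed between A7 and B7 were higher in A7. Here A7 and B7 held 4.97% and 0.298% of the natural killer gene Klra4, and 13.3% and 2.17% of the dendritic cell gene H2-Aa. The reverse held for Ncr1, Klrk1, Bst2, Tcf4, Irf8 and Zbtb46, with 2.48% and 8.10% of the dendritic cell gene Irf8. Of 8 natural killer markers, which summed to 289 and 280 normalized counts in PLZF+ libraries against 4334 and 3876 in PLZF- libraries, 7 were tested and 6 fell. Klre1 and Eomes were listed at 0 in both PLZF+ libraries. The 13 dendritic cell markers summed to 210 and 108 normalized counts in PLZF+ libraries, against 2291 and 1120 in PLZF- libraries. All were tested and 7 fell. Siglech and Spib were listed at 0 in both PLZF+ libraries, while the subsets overlapped for Bst2 and Xcr1. The 7 mast cell and granulocyte markers summed to 180 and 30.1 normalized counts in PLZF+ libraries, against 737 and 427 in PLZF- libraries, where 3 were tested and Kit fell. Kit had 18.0 and 12.3 normalized counts in PLZF+ libraries, against 278 and 248 in PLZF- libraries, and S100a8 and S100a9 were listed at 0 in every library. The 10 B and plasma cell markers summed to 274 and 419 normalized counts in PLZF+ libraries, against 722 and 500 in PLZF- libraries, and 4 were tested (median log2 fold change 1.48). Jchain fell, listed at 0 in both PLZF+ libraries, against 584 and 257 normalized counts in PLZF- libraries. Sdc1 rose, with 105 and 140 normalized counts in PLZF+ libraries, against 11.8 and 12.2 in PLZF- libraries. Cd79b had 33.4 and 29.6 against 1.69 and 7.32 and did not pass (limma adjusted p = 0.13). Beside these marker counts, limma called 4.73% of all tested genes lower and 2.52% higher. The part of such cells in the Slc7a8 and Slc38a2 results was not tested.

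Slc7a6 (chromosome 8, 106168857 to 106198706, plus strand) encodes y+LAT2, a light chain that exchanges cationic for neutral amino acids. Its locus, whose deposited name also holds a cDNA clone, had 57.6 and 104 normalized counts in PLZF+ libraries, against 116 and 102 in PLZF- libraries. Only A7 lay below the PLZF- values, and the log2 fold change was -0.49 ± 0.40 (95% interval -1.36 to 0.37, limma adjusted p = 0.54). It was -0.07 without A7 and -0.91 without B7. Slc7a5 (chromosome 8, 121881150 to 121907694, minus strand) encodes LAT1, the light chain best known from activated T cells, and it was scarce in both subsets. It had 9.91 and 0.558 normalized counts in PLZF+ libraries, against 1.69 and 14.6 in PLZF- libraries, an estimated 16 and 1 reads against 1 and 12. The subsets overlapped, the gene lay below the filter, and no change was detectable at this depth (log2 fold change -0.65 ± 1.32, limma adjusted p = 0.81, without a filter). A gene annotated on the other strand, Gm20388, overlaps Slc7a5, and reads of both cannot be told apart without a stated strand setting. Slc7a11 (chromosome 3, 49892526 to 50443614, minus strand), the light chain of the cystine and glutamate exchanger, was listed at 0 in all 4 libraries. A count of 0 allows up to 3 reads, or 1.86 and 1.67 normalized counts in PLZF+ libraries, against 5.06 and 3.66 in PLZF- libraries, for counting error only.

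The make-up of the light chain transcripts differed with Slc7a8. Only Slc7a5, Slc7a6, Slc7a8 and Slc7a11 are counted as light chains here, and other light chains were left out. These summed to 12.9 and 15.9 FPKM in PLZF+ libraries, against 59.1 and 53.5 FPKM in PLZF- libraries. Slc7a8 made up 20.5% and 1.09% of that sum in PLZF+ libraries, against 71.1% and 68.9% in PLZF- libraries. Slc7a6 made up the larger part in PLZF+ libraries, 66.4% and 98.3%, against 28.4% and 26.4% in PLZF- libraries. The FPKM of the light chains over that of the heavy chain was 0.0994 and 0.186 in PLZF+ libraries, against 0.517 and 0.565 in PLZF- libraries. The subsets did not overlap in the share of Slc7a8 or in this ratio. An exact two-sided permutation test gave p = 0.33 for each, the smallest that 2 libraries against 2 allow.

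**Figure D3:**
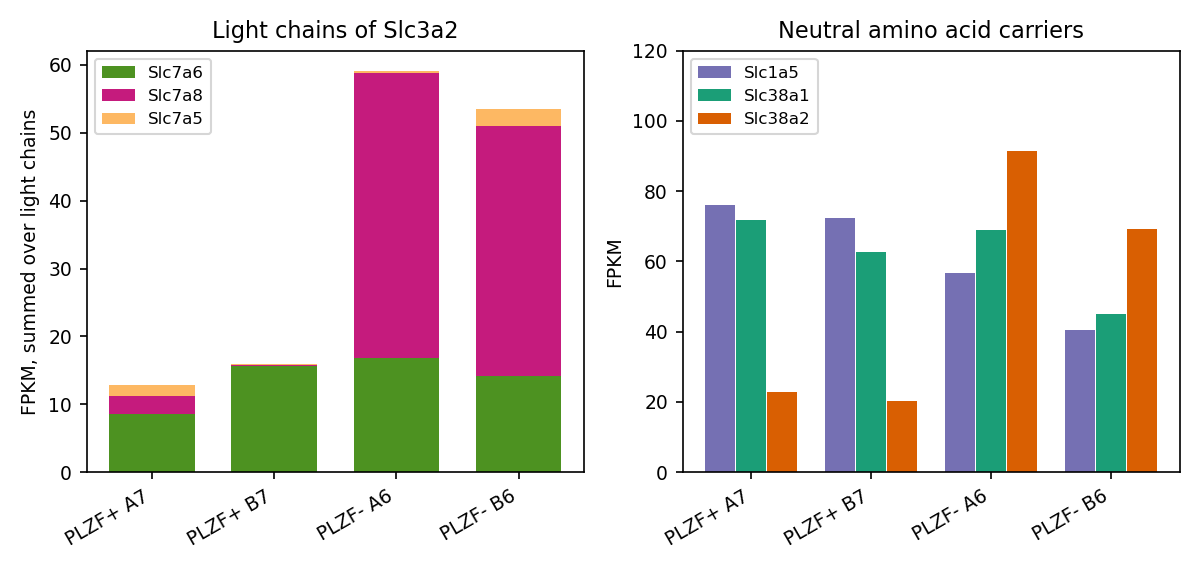
Left, FPKM of the light chain genes among the described transporters, stacked for each library. Right, FPKM of the neutral amino acid carriers Slc1a5, Slc38a1 and Slc38a2. On each side PLZF+ libraries are left of PLZF- libraries. The light chain total is 12.9 and 15.9 FPKM in PLZF+ libraries, against 59.1 and 53.5 in PLZF- libraries, and Slc38a2 is the lowest of the 3 carriers in PLZF+ libraries and the highest in PLZF- libraries.

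Slc38a2 (chromosome 15, 96687392 to 96699730, minus strand) encodes a carrier that cells are known to induce when amino acids run short. It had 170 and 153 normalized counts in the PLZF+ libraries A7 and B7, against 683 and 543 in the PLZF- libraries A6 and B6. Both PLZF+ libraries lay well below both PLZF- libraries and close to each other, and their estimated reads were 275 and 275, against 405 and 445. The log2 fold change was -1.91 ± 0.24 (95% interval -2.43 to -1.39, limma adjusted p = 0.00031). It lay between -2.07 and -1.74 when each library was left out in turn, with adjusted p from 0.0021 to 0.019. It did not pass without a trend and the robust fit (adjusted p = 0.10). In the authors' deposited table the q-value of Slc38a2 was 0.031, where 3.91% of tested loci were called lower and 1.82% higher in PLZF+ cells.

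Its neighbour on the chromosome, Slc38a1 (96571418 to 96642913, minus strand), encodes the related carrier SNAT1. Its 2 loci together had 683 and 594 normalized counts in PLZF+ libraries, against 568 and 359 in PLZF- libraries. The PLZF+ values were above the PLZF- values, but the gap to A6 was smaller than the spread between the PLZF- libraries. The log2 fold change was 0.50 ± 0.24 (95% interval -0.03 to 1.02, limma adjusted p = 0.28). Without PLZF- library A6 the gene passed as higher (log2 fold change 0.83, adjusted p = 0.043), and without B6 the log2 fold change was 0.16. The larger locus carried 633 and 530 normalized counts in PLZF+ libraries, against 472 and 316 in PLZF- libraries. The smaller one carried 50.2 and 64.7 against 96.2 and 42.7. The deposited loci of Slc38a1 and Slc38a2 cover the same span, 96571418 to 96766680, with separate values for each gene.

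Slc1a5 (chromosome 7, 16781340 to 16798274, plus strand) encodes ASCT2, an exchanger of glutamine and other neutral amino acids. It had 297 and 291 normalized counts in PLZF+ libraries, against 226 and 157 in PLZF- libraries. The subsets did not overlap, but the change did not pass (log2 fold change 0.64 ± 0.27, 95% interval 0.05 to 1.23, limma adjusted p = 0.21). It was 0.90 without PLZF- library A6 and 0.38 without B6. Its relative Slc1a4 (chromosome 11, 20302180 to 20332713, minus strand), which encodes ASCT1, had 1 estimated read in PLZF- library B6 and was listed at 0 in the other 3 libraries. Slc43a1 (chromosome 2, 84838850 to 84863594, plus strand) encodes LAT3, which works without a heavy chain, and it was listed at 0 in all 4 libraries.

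The balance between these carriers differed with Slc38a2, and the ratio and share below reuse its values, so they are no separate result. There were 0.319 and 0.323 Slc38a2 transcripts for each Slc38a1 transcript, by FPKM, in PLZF+ libraries, against 1.33 and 1.53 in PLZF- libraries. Slc38a2 made up 13.4% and 13.0% of the FPKM of Slc1a5, Slc38a1 and Slc38a2 together in PLZF+ libraries, against 42.1% and 44.7% in PLZF- libraries. The subsets did not overlap in either measure (exact two-sided permutation test, p = 0.33, the smallest possible). The sum over the 3 carriers was 171 and 155 FPKM in PLZF+ libraries, against 217 and 155 FPKM in PLZF- libraries, and it overlapped.

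Promoter sequence is shown for Slc7a8 and Slc38a2, both of which fell, and for Slc7a11, which was listed at 0 and whose window held the element bound by ATF4. The windows come from RefSeq on GRCm38.p6, run from 250 bases before to 50 bases after the start, and are written 5′ to 3′ on the strand of the gene. The table held 7 of the 10 genes, without Slc1a5, Slc7a5 and Slc38a1. Capitals mark matches to 3 motifs, searched on both strands. These were TGATGNAAN (the composite element of C/EBP and ATF factors, to which ATF4 binds), CACGTG (the E-box bound by MYC with MAX) and TGACNNNGC (the core of the antioxidant element bound by NRF2).
Slc7a8, chr14:54781837-54782136, minus strand: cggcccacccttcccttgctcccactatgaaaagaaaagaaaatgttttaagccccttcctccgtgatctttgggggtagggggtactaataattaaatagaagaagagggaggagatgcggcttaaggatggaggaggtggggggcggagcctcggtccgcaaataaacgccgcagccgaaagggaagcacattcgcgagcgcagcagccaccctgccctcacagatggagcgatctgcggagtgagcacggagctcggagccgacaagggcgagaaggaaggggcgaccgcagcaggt
Slc38a2, chr15:96699679-96699978, minus strand: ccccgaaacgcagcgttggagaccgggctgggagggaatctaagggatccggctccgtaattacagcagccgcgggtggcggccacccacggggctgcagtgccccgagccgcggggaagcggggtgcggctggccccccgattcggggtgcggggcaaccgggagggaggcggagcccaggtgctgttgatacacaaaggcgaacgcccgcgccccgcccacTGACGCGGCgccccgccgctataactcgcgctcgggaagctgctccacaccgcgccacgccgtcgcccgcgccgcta
Slc7a11, chr3:50443564-50443863, minus strand: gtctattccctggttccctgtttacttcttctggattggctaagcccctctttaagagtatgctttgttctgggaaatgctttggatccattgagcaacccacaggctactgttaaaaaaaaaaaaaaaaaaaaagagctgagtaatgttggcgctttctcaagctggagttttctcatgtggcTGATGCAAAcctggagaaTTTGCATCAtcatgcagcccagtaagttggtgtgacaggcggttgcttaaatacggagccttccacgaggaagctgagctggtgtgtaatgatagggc
The Slc7a8 window held none of the 3 motifs. The Slc38a2 window held the antioxidant core, which began 27 bases before the start and which 12.4% of all 32851 windows of 300 bases held. The Slc7a11 window held the composite element at 2 places that do not overlap, 66 and 48 bases before the start, and 3.95% of all windows held it. Among the other windows, that of Slc1a4 held the composite element and both of Slc7a6 held the antioxidant core. That of Slc43a1 held the antioxidant core and the E-box, and that of Slc3a2 held none. The windows of Slc43a1 (84840073 to 84840372) and Slc3a2 (8713848 to 8714147) lie inside the gene spans given above. They therefore surround starts other than the outer ends of those spans. The E-box was in 7.15% of all windows. Such matches only describe the letters of these windows.

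The other amino acid transporters did not change detectably. Of 45 listed genes, 28 were listed at 0 in every library and 10 were tested, of which 0 rose and 0 fell by limma (median log2 fold change -0.01). Over all tested genes limma called 4.73% lower and 2.52% higher, and voom 4.46% and 2.81%. At an unadjusted p under 0.05, 11.7% of all tested genes were lower and 8.37% higher. Of these 10 transporters, 0 had an unadjusted p under 0.05 and 0 passed by voom. So short a list allows few calls at those shares. The smallest p belonged to Slc43a2, which encodes LAT4, with 110 and 99.9 normalized counts in PLZF+ libraries, against 55.7 and 78.1 in PLZF- libraries (log2 fold change 0.66 ± 0.39, limma adjusted p = 0.37). Slc36a4, a neutral amino acid carrier, Slc16a10, which carries aromatic amino acids, and Slc7a1, the cationic amino acid carrier, followed (log2 fold changes 1.15, 0.45 and -0.32, adjusted p 0.61, 0.63 and 0.64). The subsets did not overlap for 2 of the 10, Slc43a2 and Slc7a1, against 51.1% of all tested genes. Slc7a1 had 105 and 116 normalized counts in PLZF+ libraries, against 148 and 128 in PLZF- libraries.

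Amino acid shortage acts through the factor ATF4, and of 16 tested genes of that response 2 fell and 0 rose by limma (median log2 fold change -0.55), where 4.73% of all tested genes fell and 2.52% rose. At an unadjusted p under 0.05 there were 3 lower and 2 higher, against 11.7% and 8.37% of all tested genes. Voom called 2 lower and 0 higher, against 4.46% and 2.81% of all tested genes. The 2 genes lower by limma were Ppp1r15a, which restores translation after stress, and Atf3, a stress-induced factor. Both are also known as genes induced quickly by many stimuli. Ppp1r15a had 173 and 155 normalized counts in PLZF+ libraries, against 417 and 366 in PLZF- libraries (log2 fold change -1.25 ± 0.25, limma adjusted p = 0.0084). Atf3 had 86.1 and 43.0 against 234 and 171 (-1.70 ± 0.40, adjusted p = 0.020). Ppp1r15a lost its call without PLZF+ library A7 (adjusted p = 0.070) or B7 (0.15), and Atf3 without PLZF+ library B7 (0.27) or PLZF- library A6 (0.11). Atf4 itself had 207 and 161 normalized counts in PLZF+ libraries, against 327 and 318 in PLZF- libraries, and did not pass (log2 fold change -0.82 ± 0.26, adjusted p = 0.085). Stc2, a secreted glycoprotein, did not pass either (2.34 ± 0.99, adjusted p = 0.20). The amino acid synthesis gene Asns, a standard ATF4 target chosen here after its values were seen, had 6 estimated reads in PLZF+ library A7 and was listed at 0 in the other 3 libraries.

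**Figure D4:**
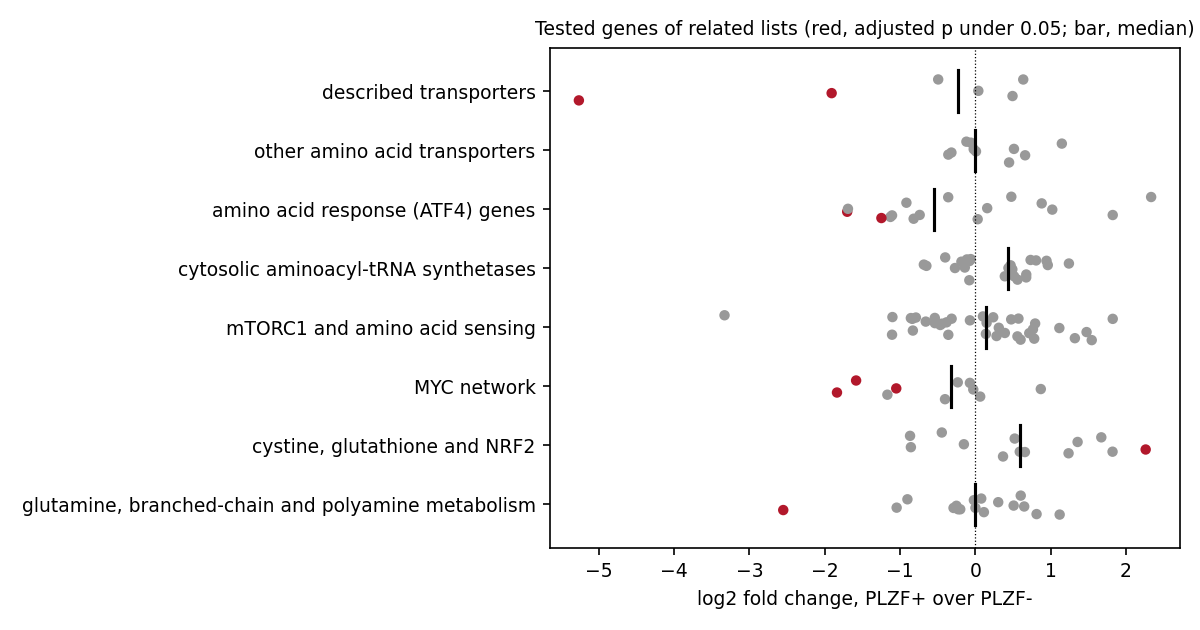
Fitted log2 fold changes of PLZF+ over PLZF- cells for the tested genes of each list, with 1 point per gene, red where the adjusted p was under 0.05 and a bar at the median. The described transporters hold 2 red points, at -5.26 and -1.91, and the lists of other transporters, aminoacyl-tRNA synthetases and mTORC1 sensing hold 0.

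None of the tested genes that load amino acids onto tRNA or sense them passed. Over all tested genes limma called 4.73% lower and 2.52% higher, and voom 4.46% and 2.81%. At an unadjusted p under 0.05, 11.7% of all tested genes were lower and 8.37% higher. Of 23 tested cytosolic aminoacyl-tRNA synthetases and partners, which load amino acids onto tRNA, 0 rose and 0 fell by limma (median log2 fold change 0.44). At an unadjusted p under 0.05, 1 was higher and 0 lower, and voom called 0. The 4 with the smallest p were Wars, Iars, Lars and Eprs (log2 fold changes 1.24, -0.68, -0.65 and -0.40, limma adjusted p 0.12, 0.29, 0.31 and 0.35). Of 36 tested genes of mTORC1, the kinase complex that reads amino acid supply, 0 rose and 0 fell by limma (median 0.15), with 2 higher and 2 lower at an unadjusted p under 0.05 and 0 by voom. Lamtor1, a lysosomal anchor of the complex, and the kinase gene Mtor had log2 fold changes of 1.55 and 1.32 (adjusted p 0.15 and 0.22). Castor2 (deposited as Gatsl2) and the scaffold gene Rptor had -3.33 and -0.85 (adjusted p 0.20 and 0.23).

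The MYC network, which governs growth and transporter transcription in T cells, had 3 of 10 tested genes lower and 0 higher in PLZF+ cells (median log2 fold change -0.32), with 0 higher and 4 lower at an unadjusted p under 0.05, and 0 higher and 3 lower by voom. Over all tested genes limma called 4.73% lower and 2.52% higher, and voom 4.46% and 2.81%. At an unadjusted p under 0.05, 11.7% of all tested genes were lower and 8.37% higher. The 3 genes lower by limma were Mxd1 and Mxd4, which encode partners of MAX that oppose MYC, and Mlxip, which encodes a partner of MLX. Mxd1 had 182 and 174 normalized counts in PLZF+ libraries, against 577 and 706 in PLZF- libraries (log2 fold change -1.84 ± 0.23, limma adjusted p = 0.00031). Mlxip fell by 1.58 ± 0.35 (adjusted p = 0.014), a call lost without A7, B7 or A6 (adjusted p 0.14, 0.11 and 0.10). Mxd4 fell by 1.05 ± 0.27 (adjusted p = 0.034), a call lost without any one library (adjusted p from 0.056 to 0.27). Myc averaged 37.2 ± 5.23 normalized counts in PLZF+ libraries, against 95.9 ± 64.8 in PLZF- libraries (SD, n = 2 each), and did not pass (log2 fold change -1.17 ± 0.53, adjusted p = 0.25).

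Of 13 tested genes of cystine, glutathione and NRF2 biology, 1 rose and 0 fell (median log2 fold change 0.59), with 5 higher and 0 lower at an unadjusted p under 0.05, and 2 higher and 0 lower by voom. Over all tested genes limma called 4.73% lower and 2.52% higher, and voom 4.46% and 2.81%. At an unadjusted p under 0.05, 11.7% of all tested genes were lower and 8.37% higher. Gpx1, a glutathione peroxidase, had 548 and 488 normalized counts in PLZF+ libraries, against 74.2 and 154 in PLZF- libraries (log2 fold change 2.26 ± 0.33, limma adjusted p = 0.00088). Txn1, Gclc and Prdx1 had log2 fold changes of 1.24, 1.36 and 0.59 (adjusted p 0.099, 0.16 and 0.22). Of 17 tested genes of glutamine, branched-chain and polyamine metabolism, 1 fell and 0 rose (median 0.00), with 2 lower and 2 higher at an unadjusted p under 0.05, and 1 lower and 0 higher by voom. The limma count lies near the 4.73% of all tested genes that fell, and the unadjusted count of lower genes near the 11.7%. Arg1, the arginase gene, also known as a product of group 2 innate lymphoid cells, counted 55.7 and 32.9 normalized counts in PLZF+ libraries, against 246 and 266 in PLZF- libraries (log2 fold change -2.55 ± 0.37, limma adjusted p = 0.00094). Sms, the spermine synthase gene, and Glud1, whose locus is shared with Gm3219, had log2 fold changes of 1.12 and 0.81 (adjusted p 0.17 and 0.20).

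The tested genes with a pattern nearest to that of Slc3a2 over the 4 libraries were Ralgapb, Tbp and Dazap1, at distances of 0.03, 0.05 and 0.05 between centred log2 values. Those nearest to Slc7a5 were Nucb2, 4930430F08Rik and Plag1, at 0.34, 0.67 and 0.88. Over 4 libraries such distances are a description only.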

How the data were processed

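RNA was sequenced after SMART-seq2 amplification, which copies whole transcripts from few cells. HISAT 0.1.6, SAMtools 1.2, Cufflinks 1.2 and the build mm10 are named, without their roles, per the submitters' processing notes. The sources used here name neither an annotation nor a strand setting. The authors deposited Cuffnorm normalized counts, a signal that scales each library's estimated counts by its own factor, the matching FPKM, and Cuffdiff results with a p-value and a q-value per locus. The columns give the subset but no replicate number. Because the Cuffdiff table names its groups only q1 and q2, directions of its calls were read from the deposited FPKM.

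Overlapping loci that share a symbol were summed. Loci with no symbol (2.54% to 3.22% of values) and Rn45s, listed at 0 in B7 and 26.8% to 33.2% elsewhere, were left out. The value of 1 read was 0.619 (A7), 0.558 (B7), 1.69 (A6) and 1.22 (B6) normalized counts, and in 92.4% to 94.2% of cases a value was whole within 0.05 read. PCR copies are not independent molecules, so read limits cover counting error only. Genes with a mean of at least 10 normalized counts were tested with limma 3.58.1 (R 4.3.3), on log2(normalized count + 1), using trended and robust moderation and two-sided p-values, with Benjamini-Hochberg adjustment over all 8930 genes and a threshold of 0.05. The added 1 makes fold changes on that scale understate the change of low genes. A ratio of mean counts is a different measure. For Slc7a8 it gave 25.7-fold, against 38.4-fold from the log2 fold change.

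P-values measure the spread between pools. The members and lists were chosen with earlier results of these data known. Named genes are the 10 transporters, the 4 genes of each list with the smallest p (1 of them is not reported here), and the 3 genes nearest in pattern to Slc7a5 and to Slc3a2 by Euclidean distance. Gene positions are 1-based and from GENCODE M21 (GRCm38, which mm10 names). Alternatives were pseudocounts of 0.25 and 4, a filter at a mean of 50 or none, scaling by median ratios or to equal totals, FPKM (pseudocount 0.1), plain moderation, voom, the code letter as a term, loci not summed, and each library left out. Figures used Python 3.11.15 and matplotlib 3.10.9.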

Additional observations from a re-analysis of the deposited data

How the results depend on the processing

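No paired analysis was possible because columns carry codes in place of the labels' replicate numbers. The code letter (A or B) was used as a term instead, and no label says that it pairs the libraries. The counts of 2 transporters lower and 0 higher held under every alternative except plain moderation without trend and robust fit, which gave 0 lower, and the leave-out fits, which gave 0 to 1 higher and 2 lower. Over all genes the 225 higher and 422 lower calls became 102 and 205 by FPKM and 24 and 146 by plain moderation, and with the code letter they became 401 and 629. When each library was left out, 38 to 441 were higher and 219 to 414 lower. The Slc3a2 log2 fold change ran from -0.24 to 0.33 when each library was left out. With 1 library left in a subset, that library is assumed to vary like the others. Of the 7 called genes of the related lists, 0 passed under plain moderation (adjusted p from 0.074 to 0.25), 3 by FPKM, 4 without A7, 3 without B7, 4 without A6 and 6 without B6. Without a filter 6 of these 7 genes passed, and 6 after scaling to equal totals, with Mxd4 losing its call in both. A count of 0 allows up to 3 reads in a library, so Slc7a11 and Slc43a1 were not detected down to that limit. The causes were not tested.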

Other observations

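Slc15a3, a lysosomal carrier of histidine and small peptides, lay below the filter. Its normalized counts were 19.2 in PLZF+ library A7 and 3.35 in PLZF+ library B7, and it was listed at 0 in both PLZF- libraries.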
